A study of Mus musculus with 3 samples.

Results

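The Hox genes and their Evx neighbours were examined in a map of Sp9 binding in the mouse olfactory bulb. Members were all peaks of the deposited list whose gene name was a Hox gene of cluster A, B, C or D, or Evx1 or Evx2. These were 47 of the 19979 peaks. They carried the names of 34 genes, out of the 38 Hox and 2 Evx genes analysed here. The chromatin came from olfactory bulbs of CD1 mice on postnatal days 0 to 2, crosslinked for 10 min with formaldehyde at 1% and sheared to between 200 and 1000 bp. There were 2 libraries immunoprecipitated with a homemade antibody to Sp9, a zinc finger transcription factor, and 1 input library made without antibody. No genotype or treatment was compared, and the labels do not say whether the immunoprecipitations came from separate litters. The single file is the authors' list of shared peaks, with 1 interval, 1 score and 1 gene name per peak and no value per library. Every value below is therefore a description with no replicate error and no test. The depth of the libraries is unknown, and expression was not measured in these files.

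Hox genes encode homeodomain transcription factors that give cells along the body axis their position. In mammals they lie in 4 clusters, HoxA to HoxD, and each gene has a paralogue number from 1 to 13 by its place in the cluster. Low numbers are active towards the head and high numbers towards the tail and the tips of the limbs. The Evx homeobox genes flank the high-numbered end of HoxA and HoxD. Hox domains in the nervous system reach from the spinal cord up to the hindbrain, and in the forebrain, of which the bulb is part, these clusters are known as silent chromatin held by Polycomb proteins. Factors of the Sp family are known to bind GC boxes, with the core GGGCGG, and CACCC boxes.

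The start regions of 5 Hox genes are printed to show how different the DNA beside these genes is. They are the gene with the highest score (Hoxd8), the 2 linked genes with the most GC boxes (Hoxa13 and Hoxd13), and 2 genes without a linked peak (Hoxa6, with GC boxes, and Hoxd4, with none). Each holds the 250 bases before the annotated start, 5′ to 3′ on the gene's strand, from RefSeq on build GRCm38.p6. Capitals mark every GGGCGG and CACCC on either strand, and neighbouring matches may overlap.
Hoxd8 (chr2:74704365-74704614, + strand): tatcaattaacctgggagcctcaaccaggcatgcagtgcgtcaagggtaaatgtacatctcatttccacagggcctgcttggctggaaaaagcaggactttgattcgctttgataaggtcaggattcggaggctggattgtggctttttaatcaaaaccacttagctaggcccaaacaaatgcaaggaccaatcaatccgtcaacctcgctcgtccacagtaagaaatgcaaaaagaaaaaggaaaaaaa
Hoxa13 (chr6:52260881-52261130, - strand): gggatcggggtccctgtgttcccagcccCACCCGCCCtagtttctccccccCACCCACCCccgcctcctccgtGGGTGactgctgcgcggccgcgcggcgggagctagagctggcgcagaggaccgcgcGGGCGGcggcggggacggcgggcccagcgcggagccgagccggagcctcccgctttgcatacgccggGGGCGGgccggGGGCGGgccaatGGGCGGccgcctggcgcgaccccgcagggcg
Hoxd13 (chr2:74667975-74668224, + strand): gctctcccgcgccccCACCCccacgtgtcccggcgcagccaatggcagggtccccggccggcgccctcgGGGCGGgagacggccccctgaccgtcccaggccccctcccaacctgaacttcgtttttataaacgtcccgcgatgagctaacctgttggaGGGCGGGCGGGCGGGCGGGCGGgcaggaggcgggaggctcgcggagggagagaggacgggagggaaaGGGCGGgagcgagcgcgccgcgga
Hoxa6 (chr6:52208673-52208922, - strand): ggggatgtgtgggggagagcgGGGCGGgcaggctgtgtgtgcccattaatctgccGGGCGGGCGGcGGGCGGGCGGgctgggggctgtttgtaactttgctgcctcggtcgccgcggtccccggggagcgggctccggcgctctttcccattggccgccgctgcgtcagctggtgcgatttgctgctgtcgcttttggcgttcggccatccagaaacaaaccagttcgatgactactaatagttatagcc
Hoxd4 (chr2:74721728-74721977, + strand): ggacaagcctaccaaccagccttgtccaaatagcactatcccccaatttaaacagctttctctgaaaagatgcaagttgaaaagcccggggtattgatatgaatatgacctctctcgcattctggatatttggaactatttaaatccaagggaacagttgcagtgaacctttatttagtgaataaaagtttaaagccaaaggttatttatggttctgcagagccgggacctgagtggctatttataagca

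Hoxd13 held 7 matches of GGGCGG and 1 of CACCC, and Hoxa13 held 5 and 4. Hoxd8, whose peak had the highest score of all members, held neither. Hoxa6 held 5 matches of GGGCGG and had no peak under its name. Hoxd4, also without a peak of its name, held no match and had the lowest GC content of the printed windows, 40.4%, against 80.0% for Hoxa13. The list is in build mm9, so whether a peak covers a printed window was not determined, and no match says only that these letters are not in this window.

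Windows of 250 bases were at hand for 24 of the 40 genes. GGGCGG was in 10 of their 26 windows (38.5%), against 32.7% of all 32851 windows in the table. CACCC was in 16 of the 26 (61.5%), against 52.0% of all. The set of all windows is not limited to protein-coding genes. Windows of Hox and Evx genes with a linked peak held GGGCGG in 9 of 21 cases (42.9%), and those without in 1 of 5 (20.0%). Over all coding genes the shares were 57.3% for linked genes (7009 of 12235 windows) and 22.8% for unlinked genes (2054 of 9028). The 38.5% of the Hox and Evx windows lay between them. The share over linked and unlinked coding genes together was not computed. The GC content of the Hox and Evx windows had a median of 56.8%, between the 60.4% of linked and the 49.2% of unlinked coding genes. Within the Hox and Evx windows the order was reversed, with 54.8% for those with a linked peak and 59.2% for those without. Matches in so few windows are counts only.

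Sp9 peaks were linked to most genes of the 4 clusters. Of the 40 genes, 34 (85%) had at least 1 peak, against 55.4% of all 21900 protein-coding genes. A peak at or above the median score of the whole list, 210.06, was linked to 18 genes (45%), against 35.4% of coding genes. There were 2 or more peaks for 11 genes (27.5%), against 15.5%. The clusters had 1.18 peaks per gene, and coding genes 0.819. Counted over linked genes alone the order turned, with 1.38 peaks per linked Hox or Evx gene and 1.48 per linked coding gene. Hox and Evx genes were thus named in the list more often than the average gene, but a named gene did not carry more peaks on average.

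The member peaks were of ordinary strength. Their score, a value given by the authors that only ranks peaks within the list, had a median of 187.11 and ran from 80.76 (Hoxd10) to 657.14 (Hoxd8). The median over all peaks was 210.06, with quartiles of 127.05 and 353.56. Of the 47 members, 19 (40.4%) lay at or above that median, against 50% of all peaks. A score of 500 or more was reached by 6 members (12.8%), against 12.1% of all peaks. Taking only the highest peak of each linked gene gave a median of 255.73, and the same over linked coding genes gave 273.24. Widths were ordinary too, with a median of 989 bp against 986 bp for all peaks. Peaks of 1500 bp or wider made up 7 of the 47 (14.9%), against 13.3% of the list. Wider members had higher scores (Spearman correlation 0.838 across the 47 peaks), as over all peaks (0.745); the points share the same libraries, and neither value is a test.

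Member peaks lay close together. For 37 of the 47 (78.7%) the nearest other peak of any name was within 10 kb, against 28.2% of all peaks. The median distance to the nearest peak was 3411 bp for members and 29562 bp over the list. Within 50 kb of their centre, members had a median of 8 other peaks and all peaks a median of 1. There were 5 or more others within 50 kb for 41 members (87.2%), against 13% of all peaks. Hox genes are packed closely in the genome, and the share of this density that follows from the packing of the genes was not tested.

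**Figure D1:**
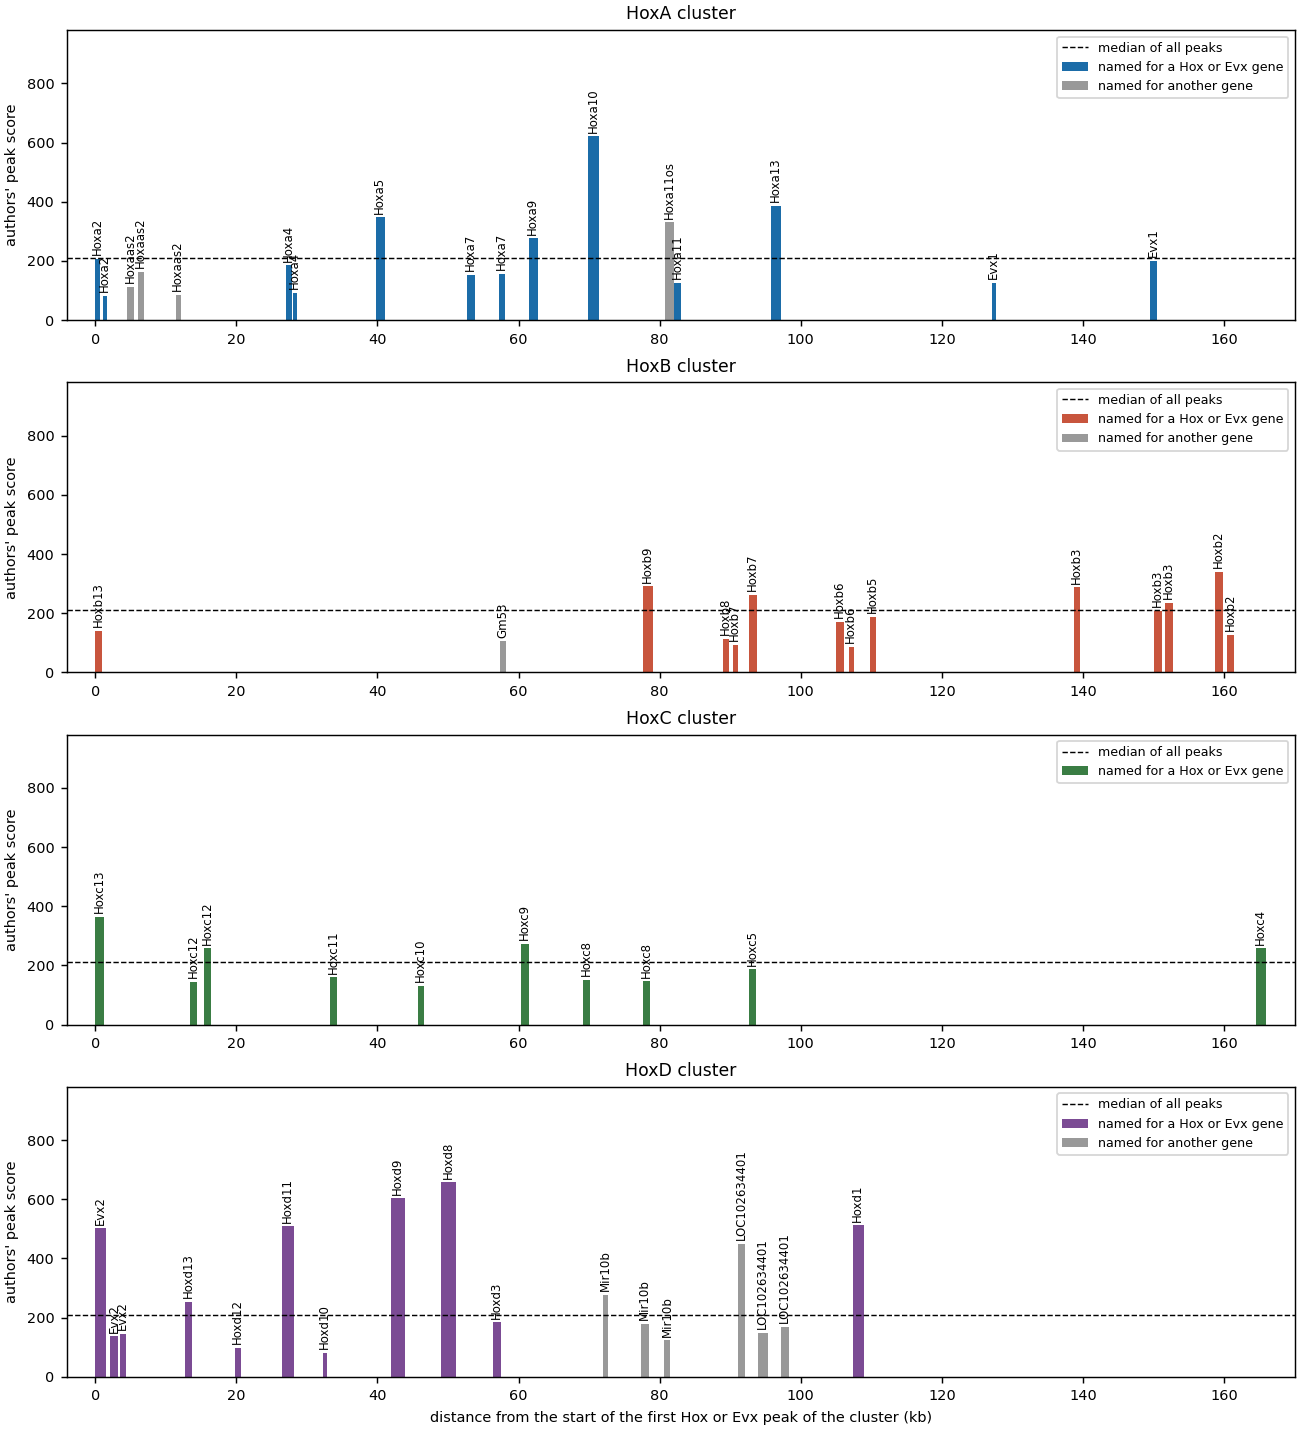
Peaks of the 4 clusters, drawn at their distance in kb from the first Hox or Evx peak of the cluster (horizontal axis) with the authors' score as height; bar width is peak width, coloured bars are members, grey bars are peaks named for another gene, and the dashed line is the median of all peaks, 210.06. Bars over 500 stand in HoxD, with 5, and HoxA, with 1; long stretches without a member lie between Hoxb13 and Hoxb9, between Hoxc5 and Hoxc4 and between Hoxd3 and Hoxd1.

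HoxD, on chromosome 2, held the strongest and widest member peaks. Its 11 peaks had a median score of 253.56 and a median width of 1108 bp, against medians of 185.06 and 914 bp in HoxA, 187.11 and 957 bp in HoxB, and 173.87 and 986 bp in HoxC. Of the 6 members scoring 500 or more, 5 were in HoxD, and of the 7 members of 1500 bp or wider, 5 were in HoxD. The ranges of the clusters overlapped throughout: HoxD also held the lowest of all member scores. Its 11 peaks fell into a high set and a low set, with no score between 253.56 and 502.54.

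The high set of HoxD had members at both ends and in the middle of the cluster. Hoxd8, a gene of middle paralogue number, had a peak of 657.14 at chr2:74542281-74544310, above 94.4% of the list. Hoxd9, a limb and spinal cord patterning gene, had 603.28 at chr2:74535091-74537190, the widest member peak with 2099 bp. These neighbouring peaks lay 5.09 kb apart. Hoxd1, the gene at the low-numbered end, had 512.73 at chr2:74600601-74602164. Hoxd11, which patterns the forearm and kidney, had 509.26 at chr2:74519713-74521349. Evx2, the flanking homeobox gene, had 502.54 at chr2:74493223-74494756, followed directly by weaker peaks of 136.32 and 145.13 that also carried its name. All 5 of these scores lay above at least 88.1% of the list.

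Between them stood lower peaks. Hoxd13, which patterns the digits, had 253.56 at chr2:74505950-74507003, and its neighbour Hoxd12 had 98.69. Hoxd10, a gene of the lumbar spinal cord and limb, had 80.76 at chr2:74525520-74526133, above 0.430% of the list and narrow with 613 bp. It lay 4.17 kb from the Hoxd11 peak and 8.96 kb from the Hoxd9 peak, both of which scored over 500. Hoxd3 had 184.71 at chr2:74549605-74550708. The weakest member peak thus stood between peaks of the high set.

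Hoxd4, a hindbrain and neck patterning gene, had no peak under its name. Between the Hoxd3 and Hoxd1 peaks, a stretch of 49.9 kb, lay 6 peaks with other names. Of these, 3 were named Mir10b, a microRNA gene that overlaps both Hoxd3 and Hoxd4 in the gene table, with scores of 277.38, 179.02 and 122.77. The other 3 were named LOC102634401, which the gene table did not match, with scores of 449.62, 148.43 and 168.43. Counting every peak from Evx2 to Hoxd1 gave 17 in place of 11. The stretch between Hoxd3 and Hoxd1 thus held peaks, but none named Hoxd4. Whether any of them lies at Hoxd4 was not determined.

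The microRNAs of the clusters are shown because they share their seeds across clusters while their names in the list did not. Mature sequences are from RefSeq, build GRCm38.p6, and capitals mark the seed, bases 2 to 8.
miR-10a-5p: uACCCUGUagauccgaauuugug
miR-10b-5p: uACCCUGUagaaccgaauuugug
miR-196a-5p: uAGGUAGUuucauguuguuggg
miR-196b-5p: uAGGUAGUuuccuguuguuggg
miR-10a, from HoxB, and miR-10b, from HoxD, have the same seed, and so do miR-196a, from HoxB and HoxC, and miR-196b, from HoxA. Of their genes only Mir10b was named, with 3 peaks. Mir10a, Mir196a-1, Mir196a-2, Mir196b and Mir615 were named in none. The share of all microRNA genes that the list names was not computed. Mir10a overlaps Hoxb3 in the gene table, which had 3 peaks of its own name.

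HoxA, on chromosome 6, had 13 member peaks over 151 kb, linked to 9 of 11 genes. Hoxa10, a gene of the uterus, limb and lumbar spine, stood above the others with 621.9 at chr6:52183642-52185320, higher than 93.4% of the list. Hoxa13, a gene of the digits and genital tract, had 386.8 at chr6:52209611-52211069. Hoxa5, a gene of the neck and lung, had 348.44 at chr6:52153637-52154905. Hoxa9, best known for its part in blood stem cells and leukaemia, had 276.13. These 4 were the members of HoxA above the median of the list.

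The other HoxA peaks were weaker. Hoxa2, which patterns the hindbrain and the face, had peaks of 207.46 and 81.62 that lay 307 bp apart. Hoxa4 had peaks of 185.06 and 92.43 only 64 bp apart, the closest pair of members. Hoxa7 had 153.8 and 157.61, separated by 3.41 kb. Hoxa11, which patterns the forearm and uterus, had 126.84. A peak of 330.52 named for its antisense transcript Hoxa11os ended 7 bp before it, so the stronger peak at this gene pair carries the non-coding name. Evx1 had 2 peaks, of 125.67 and 200.21, which lay 21.8 kb apart and 29.9 kb or more from the Hoxa13 peak.

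Hoxa3 and Hoxa6 had no peak of their name. In the gene table Hoxa3 overlaps several genes, among them Hoxa4, Hoxa5, Hoxa6 and the antisense gene Hoxaas2. Hoxa4 and Hoxa5 had peaks of their own name, and 3 peaks of 113.56, 164.09 and 86.38 were named Hoxaas2. Hoxa6 overlaps Hoxa3 and Hoxaas3, neither of which had a peak of its name. Beyond the members, a peak of 187.13 named for the long non-coding RNA gene Hotairm1 lay 4.75 kb before the first Hoxa2 peak. At the other end, a peak of 319.04 named 5730457N03Rik, a synonym of the antisense gene Evx1os, lay 2.04 kb past the last Evx1 peak.

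HoxB, on chromosome 11, had 13 member peaks over 161 kb, and none scored 500 or more. Its highest was Hoxb2, a hindbrain gene, with 339.17 at chr11:96213907-96214924 and a further peak of 126.11 beside it. Hoxb9, a thoracic gene, had 291.52 at chr11:96132712-96134238. Hoxb3 had 3 peaks, of 288.13, 208.83 and 234.55, which with Evx2 is the largest number for a member gene. Hoxb7 had 263.1 and 92.59. These are the genes of HoxB with a peak above the list's median.

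Below it were Hoxb5, Hoxb6, Hoxb8 and Hoxb13. Hoxb5 had 187.11, Hoxb6 had 171.49 and 85.66, and Hoxb8 had 112.92, all between the Hoxb9 and Hoxb3 peaks. Hoxb13, a gene of the tail and prostate, had 140.18 at chr11:96055123-96056080. It stood alone, with no other peak within 50 kb, and the next member was 76.6 kb away. Many peaks of HoxB came in close pairs: for 8 of the 13 the nearest peak was less than 1 kb away. This held for 5 of 13 in HoxA, 3 of 11 in HoxD and 0 of 10 in HoxC. Apart from the pair of Hoxb8 and Hoxb7, the HoxB pairs carried the same name (Hoxb6, Hoxb3 and Hoxb2). The share of all peaks under this limit was not computed. Hoxb1 and Hoxb4 had no peak of their name. Hoxb4 lies within Hoxb3 in the gene table, and no gene of that table overlaps Hoxb1.

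HoxC, on chromosome 15, has no Evx gene and no genes 1 to 3 and 7, and had 10 member peaks over 166 kb. They were the most evenly built, with scores from 131.23 to 363.9 and widths from 847 to 1329 bp. Hoxc13, a gene of hair and nails, had the highest, 363.9 at chr15:102751576-102752849. Hoxc9, a thoracic gene, had 272.63, Hoxc12 had 258.05 and 145.13, and Hoxc4 had 257.9. Then came Hoxc5 with 187.45, Hoxc11 with 160.29, Hoxc8 with 150.58 and 146.54, and Hoxc10 with 131.23. Hoxc6 had no peak of its name, and no peak of another name lay inside this cluster.

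The Hoxc4 peak, at chr15:102916176-102917505, lay 70.9 kb from the Hoxc5 peak and had no other peak within 50 kb of its centre. Hoxc4 follows Hoxc5 directly in the gene table. The list gives no distance to a gene, so where this peak stands with respect to Hoxc4 is not known.

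**Figure D2:**
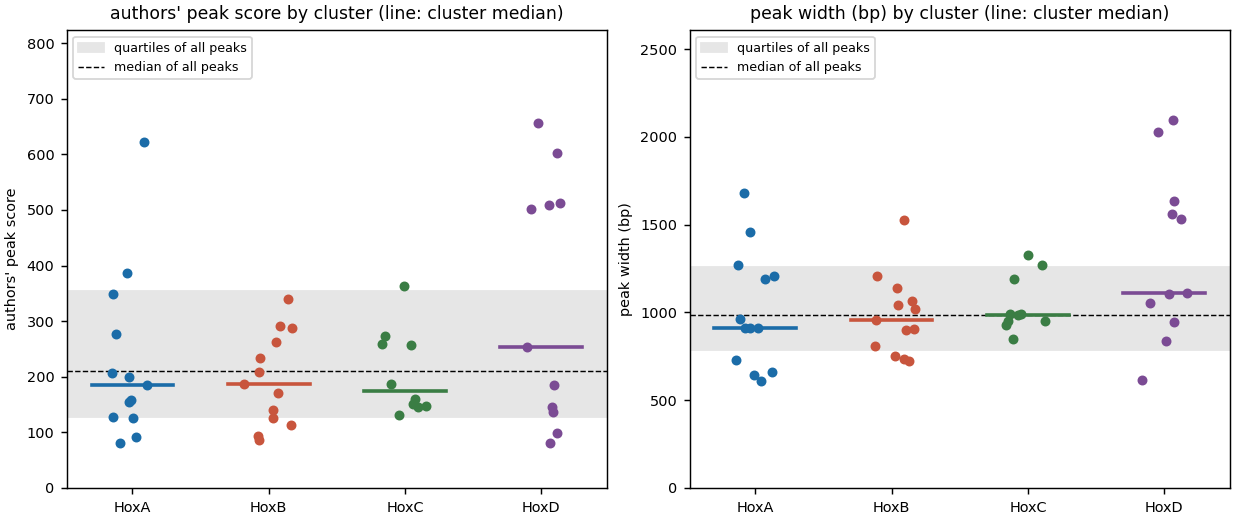
Authors' peak score (left) and peak width in bp (right) of each member peak by cluster; each point is 1 peak, the horizontal spread is only for display, coloured lines are cluster medians, and the grey band and dashed line are the quartiles and median of all 19979 peaks. HoxD has the highest medians, 253.56 and 1108 bp, and 5 peaks apart from its other 6.

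Spacing differed between the clusters. The gap from the end of a member peak to the start of the next had a median of 4.22 kb in HoxB, 5.57 kb in HoxD, 10.9 kb in HoxA and 12.2 kb in HoxC. Over the length between the outermost member peaks, HoxD was the densest. It had 10.1 member peaks per 100 kb, and 13.3% of its 109 kb was covered by them. HoxA had 8.64, HoxB 8.06 and HoxC 6.03 member peaks per 100 kb. These lengths take in remote end peaks: Hoxb13 after a gap of 76.6 kb, Hoxc4 after 70.9 kb and Hoxd1 after 49.9 kb. The order of density without such end peaks was not computed. HoxB held the largest gap of all, 76.6 kb. Its median gap was no longer the smallest when all peaks inside the clusters were counted (6069 bp, against 5783 bp in HoxA and 5193 bp in HoxD), or only those at or above the list's median score (12753 against 12710 bp). From Evx2 to Hoxd3 the HoxD peaks named for different genes were regularly spaced, with gaps between 4.17 and 8.96 kb. In HoxC, 7 of the 9 gaps lay between 7.53 and 16.9 kb.

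**Figure D3:**
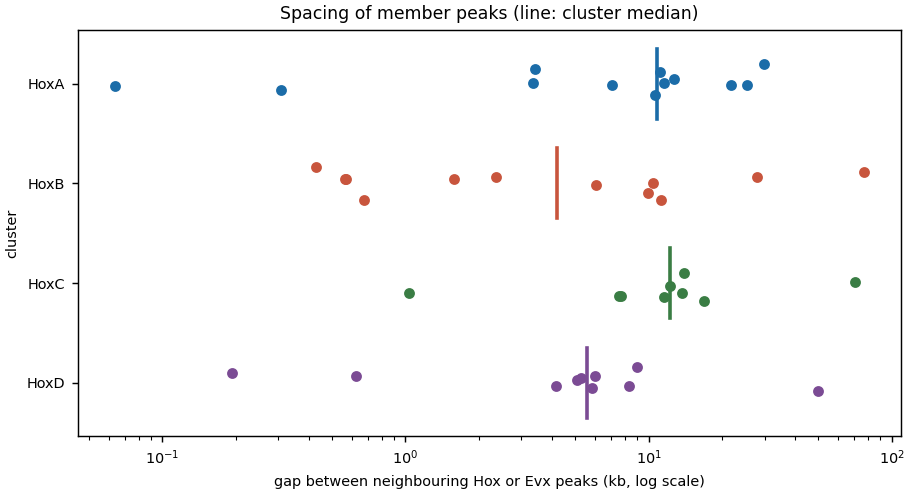
Gap in kb, on a log scale, between neighbouring member peaks, by cluster; each point is 1 gap and lines are cluster medians. HoxB gaps spread from 0.429 to 76.6 kb, whereas most HoxC gaps lie near their median of 12.2 kb.

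In all 4 clusters the order of the named peaks along the chromosome followed the order of the genes. Among neighbouring peaks named for different genes, this held for 8 of 8 pairs in HoxA, 7 of 7 in HoxB, 7 of 7 in HoxC and 8 of 8 in HoxD. How the authors gave names is not stated, and names given by position follow gene order by construction. The stretches from HoxB, HoxC and HoxD to the next peak outside are given as distances only. They were not set beside the gaps between all neighbouring peaks of the list. The nearest peak outside was 68.9 kb away at Ttll6 and 422 kb away at Snx11 for HoxB. It was 174 kb away at Gm38436 and 59.4 kb away at D930007P13Rik for HoxC, and 75.9 kb at Lnp and 61.5 kb at Mtx2 for HoxD. For HoxA the nearest outside peaks were those of the non-coding genes Hotairm1 and Evx1os.

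By paralogue number, the high-numbered genes were all linked. Each of the 16 genes numbered 9 to 13 had a peak, as did 9 of 11 genes numbered 5 to 8 and 7 of 11 numbered 1 to 4. The share over all coding genes was 55.4%. Peaks at or above the list's median belonged to 10 of the 16, 3 of the 11 and 4 of the 11, against 35.4% of all coding genes. The number of peaks per gene was close to level, with 1.06, 1.18 and 1.09. Scores overlapped between the 3 ranges: the median of the peaks was 258.05 for numbers 9 to 13, 157.61 for 5 to 8 and 208.14 for 1 to 4. Over the 32 linked Hox genes, paralogue number and highest score had a Spearman correlation of -0.106, a description over genes that share libraries. Within clusters it was 0.238 in HoxA, -0.524 in HoxB, 0.333 in HoxC and -0.405 in HoxD, each over 8 genes, so no common slope was seen.

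All 4 genes of group 9 had a peak above the median, with 276.13 for Hoxa9, 291.52 for Hoxb9, 272.63 for Hoxc9 and 603.28 for Hoxd9. Of group 13, 3 of 4 did, and Hoxb13, which stands far from its cluster, did not. The share over all coding genes was 35.4%, and each group holds few genes. In group 10, Hoxa10 had 621.9, Hoxc10 131.23 and Hoxd10 80.76. Group 8 had 657.14 for Hoxd8, 150.58 for Hoxc8 and 112.92 for Hoxb8. Hoxd1 was linked and Hoxb1 was not, and of group 6 only Hoxb6 was linked, with 171.49.

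**Figure D4:**
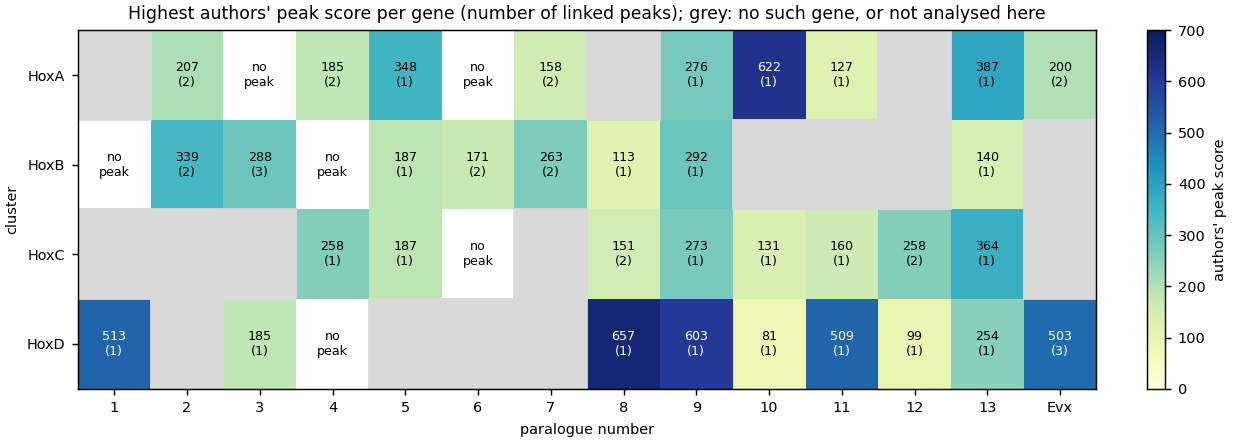
Highest authors' score of each gene (colour and upper figure) and its number of linked peaks (in brackets), by paralogue number (horizontal) and cluster (vertical); white cells are genes without a peak of their name and grey cells have no such gene or were not analysed here. The 6 white cells are at numbers 1, 3, 4 and 6, and columns 9 and 13 are linked in every cluster.

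Among the 11 genes with several peaks, the further peaks were weaker. The 13 further peaks had a median score of 136.32 and a highest of 234.55, and 1 of them reached the list's median. The highest peaks of the same genes had a median of 207.46; being the highest of their gene, they had to lie above. Hoxa2, Hoxa4, Hoxb2, Hoxb3, Hoxb6 and Evx2 each had further peaks within 1 kb of another peak of their name. A single broad region split by the peak caller and separate regions cannot be told apart in this list.

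Genes that are known to act with or on Hox genes, and other homeobox genes, were also linked. They are set beside the 55.4% of all coding genes and the median highest score of 273.24 of linked coding genes. Polycomb genes, whose products keep Hox chromatin silent, had 24 of 27 linked, with a median highest score of 428.79, led by Pcgf5 (973.36), Ezh2 (628.47) and Cbx8 (603.12). Trithorax genes, whose products keep active Hox genes open, had 10 of 11 linked, with a median of 265.14, led by Kmt2c (1066.89). The TALE homeodomain genes, whose products bind DNA together with Hox proteins, had 8 of 9 linked, with a median of 200.25, led by Pbx3 (765.57). Genes of the ParaHox group and other relatives of the Hox genes had 11 of 13 linked, led by Gbx2 (856.33). The linked homeobox pairs and groups of the Dlx and Irx families had 6 of 6 each. The shares of these 6 lists ran from 84.6 to 100%, beside 85% for the Hox and Evx genes. The median highest score of the latter, 255.73, lay above that of the TALE genes and below those of the other 5 lists, with 349.28 for the ParaHox list, 278.96 for Dlx and 484.51 for Irx. These lists are small, and no difference between them was tested.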

How the data were processed

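Sp9 chromatin immunoprecipitation from mouse olfactory bulb was sequenced as paired reads of 150 bases, per the labels' protocols, in 2 immunoprecipitation libraries and 1 input. The submitters' processing notes name Bowtie2 2.2.4, MACS 1.4.2 and build mm9, with no roles or settings. The deposited list gives positions, a peak score and a gene name. The sources used here do not state how peaks were shared or named, how the score was formed or whether starts count from 0 or 1. The deposited score served for ranking within the list.

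Names were matched exactly by the member rule, and over all genes by symbol or unique synonym to the RefSeq table (GRCm38.p6), used for names, overlaps and gene order. Width is end minus start. Gaps run from end to next start, and distances within 50 kb from centre to centre. Motifs were searched on both strands. Functions for spacing and motifs were checked on simulated data. Python 3.11.15, pandas 2.3.3, numpy 2.4.6 and scipy 1.17.1 were used. The members and gene lists were chosen with earlier results of these data known. Results on 1 Hox gene are not reported here, and it is left out of the gene counts. All other member genes are named, and of other lists up to 3 genes with the highest score. The alternatives are given in the closing section.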

Additional observations from a re-analysis of the deposited data

How the results depend on the processing

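Library depth is unknown, so a gene without a peak may only have been missed. Leaving out each replicate could not be run, because the list holds no value per library. With peaks at or above the list's median score only, peaks per cluster were 4 in HoxA, 5 in HoxB, 4 in HoxC and 6 in HoxD, so that HoxD came first. Linked genes then numbered 18, and 6 at a score of 500 or more. The median gap became 20451 bp in HoxA, 12753 bp in HoxB, 43863 bp in HoxC and 12710 bp in HoxD, and the median width 1273 bp. Fewer peaks enter by construction. Counting all peaks between the outermost members moved HoxD to 17. It set the median gap to 5783 bp in HoxA, 6069 bp in HoxB and 5193 bp in HoxD (added after seeing the data), so that HoxB, under both this and the score limit, no longer had the smallest. Centre to centre, the medians were 12004, 5139, 13297 and 7027 bp for HoxA to HoxD. With 1 value per gene, the median score was 255.73. Joining peaks under 1000 bp apart gave 11 peaks in HoxA, 9 in HoxB, 10 in HoxC and 9 in HoxD, each within 1.5 times of the main count. The order of the clusters changed: HoxB, level with HoxA at 13 before, then had the fewest together with HoxD.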

Other observations

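Genes on both sides of the clusters and genes of the retinoic acid pathway, which sets Hox expression in the hindbrain, were looked at in the same way. Of 22 flanking genes that the gene table matched, 18 had a linked peak (81.8%, against 55.4% of all coding genes), with a median highest score of 212.59 against 255.73 for the linked Hox and Evx genes. The highest belonged to Lnpk beside HoxD (446.34), Tax1bp1 (432.44) and Hibadh (347.85), both beside HoxA. Of 12 retinoid genes, 10 were linked (83.3%), with 2.08 peaks per gene, against 1.18 for the Hox and Evx genes and 0.819 for all coding genes. The highest score was that of the retinoid X receptor gene Rxrb (779.82). Aldh1a2, which makes retinoic acid, had a score of 599.6, and Cyp26b1, which breaks it down, had 579.49 and 5 peaks. Within the clusters, 1 of the Hoxc12 peaks and 1 of the Evx2 peaks had exactly the same score, 145.13, which 27 peaks of the list share.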
